A study of Mus musculus with 16 samples.

Results

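Mouse islet cells that received Ad-Cre together with a JNK inhibitor were compared with untreated control cultures, in order to describe which transcripts were at control level and which remained altered when both agents were present. The comparison used 8 of the 16 bulk RNA-seq libraries of the series. These were 4 libraries labelled Ad-Cre + JNK Inh and 4 labelled Ad-LacZ + DMSO, paired by the preparation code in their titles (F1, M1, M2 and F2). All 16 libraries came from dispersed pancreatic islet cells of adult Grp78 fl/fl mice, in which loxP sites flank part of Hspa5, the gene that encodes the ER chaperone GRP78. Cells were transduced with an adenovirus carrying Cre or, as control, LacZ, and were kept for 72 h in 15 mM glucose with the covalent pan-JNK inhibitor JNK-IN-8 or its vehicle DMSO. The other groups were 4 libraries of Ad-Cre + DMSO and 4 of Ad-LacZ + JNK Inh, which stand beside the comparison where they bear on a gene. Every culture carried the floxed alleles and a virus. According to the labels each preparation carried 2 animal numbers, and the study used 2 male and 2 female mice. The virus can enter any islet cell type, so Cre was not restricted to β cells, and the cultures were mixtures in which fewer cells of a type and less RNA per cell cannot be told apart.

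When unfolded proteins accumulate in the ER, GRP78 leaves the sensors PERK, IRE1 and ATF6, and these start the unfolded protein response (UPR). The response raises chaperones, ER-associated degradation (ERAD) and transport genes through ATF6 and XBP1, and stress genes such as Ddit3 through PERK and ATF4. IRE1 can also activate the kinase JNK, which phosphorylates cJUN. β cells make large amounts of proinsulin and depend on this response, while their identity rests on a set of transcription factors that includes MAFA, PDX1 and NKX6-1.

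Values are RPKM as deposited by the authors, divided by a scaling factor for each library (TMM, trimmed mean of M-values), and are called scaled RPKM below. Differences are on the scale of log2(scaled RPKM + 1) and were tested within preparations by limma. A gene was called when its Benjamini-Hochberg adjusted p was under 0.05 and its fold change was above 1.5. Of 25105 genes listed, 11514 passed a filter of more than 1 RPKM in 4 or more of the 8 libraries. The read depth, recovered from the steps between low RPKM values, was 15500000 to 22700000 reads in the 4 control libraries and 7620000 to 20500000 in the 4 libraries with Ad-Cre and inhibitor. The library labelled Ad-Cre + JNK Inh F2 was the shallowest. It was also the only library whose column header differed from all others in its first and last codes. The labels do not say what these codes stand for. Within the F2 pair, any batch that they mark cannot be told apart from the treatment. As a check of the label as islet cells, Ins2 was between 21623 and 42863 scaled RPKM in the controls, and 1 of 10 acinar markers, Cela1, passed the filter.

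By its value per gene, the targeted gene went against the knockdown label. Hspa5 (ENSMUSG00000026864, chr2:34771970-34777547, plus strand, GRCm38) was at 480, 482, 353 and 385 scaled RPKM in the control libraries of preparations F1, M1, M2 and F2. It was at 1580, 1572, 1285 and 1707 in the libraries labelled Ad-Cre + JNK Inh, so all 4 lay above every control. The log2 difference was 1.86 ± 0.14 (SE, n = 4 pairs, limma adjusted p = 0.000277). After quantile normalization the Hspa5 difference was 0.89 (adjusted p = 0.00314). Hspa5 was also higher in the libraries labelled Ad-Cre + DMSO, at 1224 ± 175 scaled RPKM (SD, n = 4). For Ad-Cre against Ad-LacZ, the study reported lower Grp78 by qPCR on parallel RNA aliquots of its sequenced samples. Its immunoblots of such cultures showed a partial loss of GRP78 protein. A value per gene does not separate floxed from intact exons, and Hspa5 is itself a UPR target, so the level does not show how much of the gene was recombined. Directions below are therefore those of the libraries labelled Ad-Cre + JNK Inh.

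The promoters of 4 raised ER folding genes are shown as those chosen for holding the ER stress response element, through which ATF6 acts, searched here as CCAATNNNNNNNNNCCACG on both strands. It was found in the window from 250 bases before to 50 bases after the start site (RefSeq, GRCm38.p6) for 7 of 21 ER chaperone and folding genes that had a promoter in the table (33.3%) and for 2 of 16 ERAD genes (12.5%), Derl3 and Syvn1. Among all genes tested, 16 of 8977 held it (0.178%), and among all promoters listed it was 39 of 32851 (0.119%). The promoters of Pdia4 and Sdf2l1, which rose more than several of the genes shown, did not hold it. A match describes these letters only. The bases before the start site are given 5′ to 3′ for the chaperone gene of the study (chr2:34771840-34772089, plus strand) and for the genes of GRP94 (chr10:86705445-86705694, minus strand), calreticulin (chr8:84846932-84847181, minus strand) and CRELD2 (chr15:88819396-88819645, plus strand), with the element in capitals.
Hspa5: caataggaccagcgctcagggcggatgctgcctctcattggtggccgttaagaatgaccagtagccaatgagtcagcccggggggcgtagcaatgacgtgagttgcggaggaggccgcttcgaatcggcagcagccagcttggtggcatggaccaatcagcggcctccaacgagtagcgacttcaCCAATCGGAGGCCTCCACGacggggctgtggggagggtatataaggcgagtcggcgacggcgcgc
Hsp90b1: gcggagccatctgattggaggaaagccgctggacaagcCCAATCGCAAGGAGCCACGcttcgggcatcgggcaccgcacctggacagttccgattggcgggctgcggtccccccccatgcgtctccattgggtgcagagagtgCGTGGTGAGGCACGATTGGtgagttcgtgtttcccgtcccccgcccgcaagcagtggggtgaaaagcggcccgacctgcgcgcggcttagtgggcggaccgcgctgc
Calr: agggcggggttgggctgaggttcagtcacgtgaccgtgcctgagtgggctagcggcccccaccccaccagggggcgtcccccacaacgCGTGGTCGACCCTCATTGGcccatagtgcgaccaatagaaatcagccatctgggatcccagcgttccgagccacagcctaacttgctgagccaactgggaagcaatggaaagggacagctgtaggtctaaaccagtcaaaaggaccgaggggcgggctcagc
Creld2: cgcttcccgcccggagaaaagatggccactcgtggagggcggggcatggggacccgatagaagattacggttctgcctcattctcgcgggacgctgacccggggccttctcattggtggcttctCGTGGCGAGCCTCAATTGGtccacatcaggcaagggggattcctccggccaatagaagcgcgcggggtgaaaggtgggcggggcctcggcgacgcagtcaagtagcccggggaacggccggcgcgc
Hsp90b1 held the element 2 times, once on each strand, and the other 3 genes held it 1 time.

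Across all genes, 2322 of 11514 (20.2%) were called, of which 1361 were higher (11.8% of genes tested) and 961 were lower (8.35%). The change had the same sign in all 4 preparations for 2212 of the 2322. For 3663 genes (31.8%) the 4 libraries of one group did not overlap the 4 of the other. By contrast, 5088 genes (44.2%) had a 95% interval of the difference that lay within a fold change of 1.5 either way. The split between higher and lower depended on the scaling: without TMM factors the median difference of all genes was -0.15 on the log2 scale, against -0.01 with them, and 897 genes were called higher and 1664 lower. Quantile normalization gave 1087 higher and 1022 lower.

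**Figure D1:**
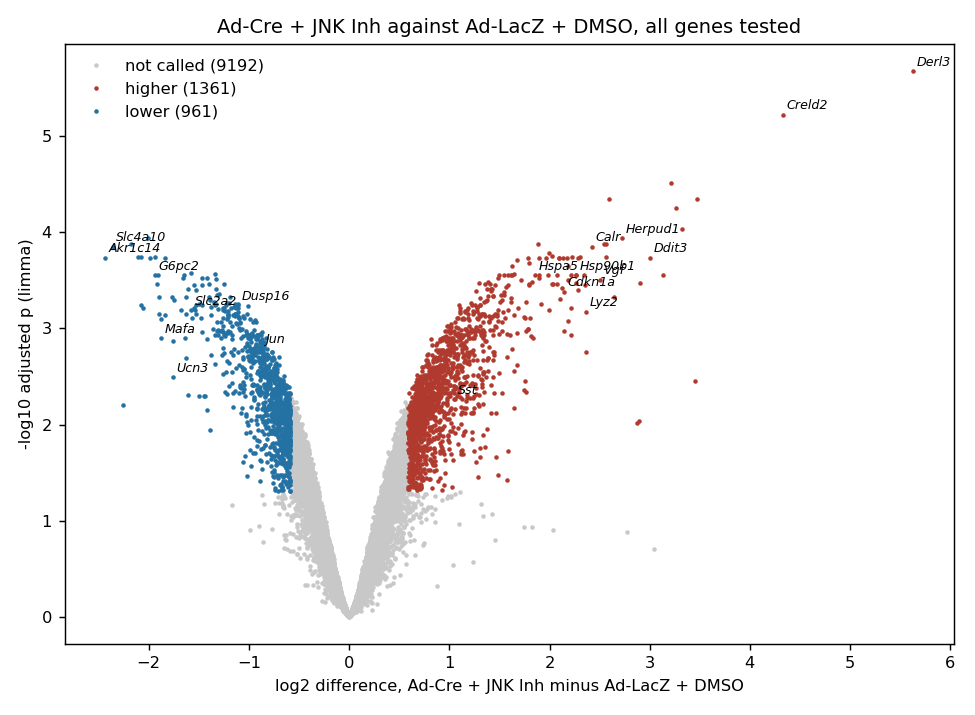
Each point is 1 of the 11514 genes tested. The horizontal axis is the log2 difference between Ad-Cre + JNK Inh and Ad-LacZ + DMSO, the vertical axis is the -log10 of the limma adjusted p, and colour marks the 1361 genes called higher and the 961 called lower. ER stress genes lie far to the right and β cell genes such as Mafa, Ucn3 and Slc2a2 lie to the left.

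The ER chaperones and folding enzymes were raised together. Of 26 measured genes, 19 rose and none fell, where 11.8% of all genes rose, and the median difference was 1.45 against -0.01 over all genes. In the 4 preparations that median was 1.38, 1.43, 1.53 and 1.54. After quantile normalization it was 0.81, with 15 higher and 1 lower. Creld2, an ER-resident folding factor, was at 51.9, 55.2, 43.2 and 53.8 scaled RPKM in the controls and at 1029, 1021, 858 and 1313 with Ad-Cre and inhibitor. The groups were far apart, with a log2 difference of 4.33 ± 0.13 (SE, n = 4 pairs, adjusted p = 5.92e-06). Pdia4, a protein disulfide isomerase, rose by 3.48 ± 0.15 from 106 ± 18.0 to 1189 ± 196 scaled RPKM (SD, n = 4 each). Sdf2l1, a component of an ER chaperone complex, rose by 3.14. Calr, which encodes the lectin chaperone calreticulin, rose from 270 ± 44.3 to 1445 ± 120, a difference of 2.43. Hsp90b1, which encodes GRP94, rose from 532 ± 90.7 to 2546 ± 365, a difference of 2.26. After quantile normalization the differences of Calr and Hsp90b1 were 1.53 and 1.33. Not every folding gene took part. Sil1, Dnajc1, Dnajc10 and Ero1l had intervals within a fold change of 1.5, with differences between -0.08 and 0.09, and the β cell oxidoreductase gene Ero1lb was 0.57 lower and was not called.

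Of 21 ERAD genes 8 rose and none fell, where 11.8% of all genes rose, with a median of 0.41. A further 9 were within a fold change of 1.5, where 44.2% of all genes were. Derl3, a channel component of ERAD, had the largest difference of all called genes. It was at 2.23, 2.23, 1.01 and 2.02 scaled RPKM in the controls and at 157, 139, 87.9 and 194 with Ad-Cre and inhibitor, a difference of 5.63 ± 0.14 (SE, n = 4 pairs, adjusted p = 2.09e-06). Herpud1 rose by 2.72, Sel1l, the adaptor of the HRD1 ligase, by 2.29 and Syvn1, which encodes HRD1, by 1.41. Edem1 and Os9, which recognise glycoproteins for degradation, rose by 1.40 and 1.35. Derl1, Derl2 and Edem3 differed by 0.24, 0.20 and 0.08 and were not called.

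Genes for entry into and exit from the ER also rose, by less. Their counts stand beside the 11.8% of all genes that rose and the 8.35% that fell. In the group for translocation and N-glycosylation 17 of 38 rose and none fell, with a median of 0.52. Prkcsh, a glucosidase subunit, rose by 1.31, Ssr4, of the translocon-associated complex, by 1.22 and the signal recognition particle gene Srp9 by 1.13. Among COPII and COPI transport genes 10 of 29 rose (8 as deposited, 5 after quantile normalization) and none fell, led by Kdelr3, a retrieval receptor for ER proteins, at 2.11. The count for translocation and N-glycosylation was 11 as deposited and 7 after quantile normalization, and the median stayed above 0 in both.

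Of 14 genes for UPR sensors and processing enzymes 2 rose, where 11.8% of all genes rose, and 8 had intervals within a fold change of 1.5, where 44.2% of all genes did. These shares do not set the list apart. Xbp1 and Ern1, which encodes IRE1, differed by -0.17 and -0.20, and Atf6 by -0.42, which did not pass the test. Eif2ak3, which encodes PERK, rose by 0.62 and the phosphatase subunit gene Ppp1r15a by 1.79. The median of the list was 0.08, and it was -0.09 both as deposited and after quantile normalization.

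Downstream of PERK, the outcome differed between genes. Ddit3, which encodes the transcription factor CHOP, was at 8.38, 8.08, 9.84 and 9.16 scaled RPKM in the controls and at 53.3, 53.8, 100.3 and 127 with Ad-Cre and inhibitor. The groups did not overlap, and preparations M2 and F2 were the highest; the difference was 3.00 ± 0.20 (SE, n = 4 pairs, adjusted p = 0.000184). Of 27 genes tested in the list of ATF4 and CHOP targets, 8 rose, 1 fell and 7 were within a fold change of 1.5. Over all genes 11.8% rose, 8.35% fell and 44.2% were within that range. Nupr1 rose by 1.82, Gdf15, a stress cytokine, by 1.45 and the serine synthesis gene Psat1 by 1.08. Trib3, a pseudokinase gene, was at 20.2, 19.2, 13.6 and 8.39 scaled RPKM in the controls and at 28.2, 28.7, 20.2 and 53.7 with both agents (adjusted p = 0.0452). The groups were apart by a narrow margin, and F2 was the highest. The Trib3 difference was 0.86 as deposited (adjusted p = 0.085) and 0.52 without preparation F2, and it was not called in either. Chac1, which encodes a glutathione-degrading enzyme, fell by 0.67. Atf4 itself was 0.48 higher and Asns, for asparagine synthetase, 0.39 lower, and neither was called. Among the tRNA synthetases 4 of 11 rose, with a median of 0.29, but 1 of 11 as deposited and none after quantile normalization.

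**Figure D2:**
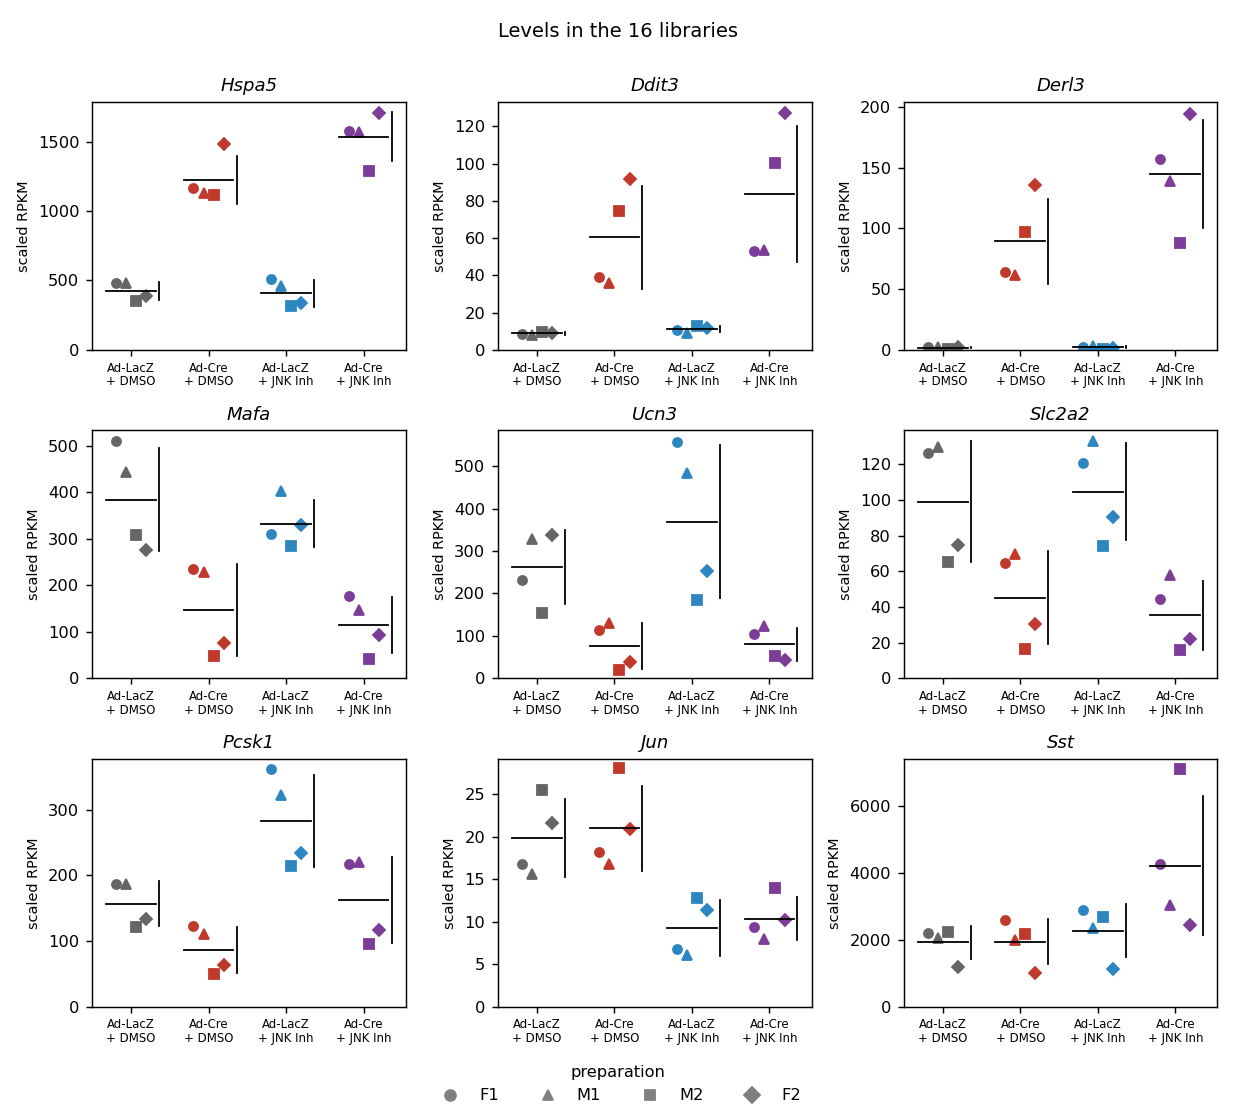
Scaled RPKM (vertical axes, linear and starting at 0) of 9 genes in the 16 libraries, by group. Symbols mark the preparations, horizontal bars the mean and vertical bars the SD of 4 libraries. Hspa5, Ddit3 and Derl3 are high in both groups with Ad-Cre, Mafa, Ucn3 and Slc2a2 are low in both, Pcsk1 is lowest with Ad-Cre + DMSO, Jun is low in both groups with inhibitor, and Sst is highest with Ad-Cre + JNK Inh.

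The cJUN and JUND genes were below control. Jun, which encodes cJUN, was at 16.7, 15.6, 25.5 and 21.6 scaled RPKM in the controls and at 9.34, 7.97, 14.0 and 10.1 with Ad-Cre and inhibitor. The groups did not overlap, with a difference of -0.88 ± 0.12 (SE, n = 4 pairs, adjusted p = 0.00162). In Ad-Cre + DMSO it was 0.07 from control, and in Ad-LacZ + JNK Inh it was -1.06 from control (adjusted p = 0.0339). Jund fell by 0.82, from 125, 117, 103 and 67.4 to 77.6, 70.3, 31.98 and 58.3, with overlap between groups. Of 15 AP-1 and immediate-early genes tested 6 rose and 2 fell, where 11.8% of all genes rose and 8.35% fell. Those that rose included Atf3 at 1.14, Klf4 at 0.89, Egr1 at 0.88 and Fos at 0.78. Among 17 JNK pathway genes 1 rose and 3 fell, where 20.2% of all genes were called, so the count does not set the list apart. The phosphatase genes Dusp16 and Dusp8, whose products act on MAP kinases, fell by 1.11 and 0.98, the neuronal JNK gene Mapk10 fell by 0.69, and the scaffold gene Mapk8ip3 rose by 1.01. Mapk8 and Mapk9, which encode JNK1 and JNK2, differed by -0.29 and 0.07 and were not called. Among cJUN targets chosen for qPCR, Wee1 differed by -0.34 and Nfatc2 by -0.52, and neither was called. Fosb did not pass the filter and was not tested in the main fit. It was between 0.165 and 0.379 scaled RPKM in the controls and between 0.953 and 1.256 with Ad-Cre and inhibitor. The Fosb groups did not overlap, at levels near or below the filter of 1 RPKM. With no filter, 1 of these 3 targets was called higher and none lower.

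Single p53 targets differed in outcome. Cdkn1a, which encodes the cell cycle inhibitor p21, was at 50.8, 49.4, 87.6 and 58.3 scaled RPKM in the controls and at 276, 274, 239 and 285 with Ad-Cre and inhibitor. The groups did not overlap, and the difference was 2.14 ± 0.19 (SE, n = 4 pairs, adjusted p = 0.000412). The pro-apoptotic gene Bax rose by 0.97, from 31.6 ± 5.31 to 62.9 ± 11.8 (adjusted p = 0.00355). Of 30 core p53 pathway genes tested, 5 rose and none fell, where 11.8% of all genes rose and 8.35% fell. Another 12 were within a fold change of 1.5, where 44.2% of all genes were. Besides Cdkn1a and Bax, the 5 were Pidd1 by 0.78, Ccng1 by 0.64 and Plk2 by 0.62. As deposited 3 of the 30 rose and 1 fell, and after quantile normalization 4 rose and none fell. These counts do not set the list apart. Of 6 p53 targets chosen for qPCR in such cultures, which are no independent evidence of direction, 3 rose. These were Atf3 by 1.14, Sdc1, which encodes a cell surface proteoglycan, by 1.10, and Trib3. Phlda3 was 0.54 higher with an interval from -0.05 to 1.12, although without preparation M2 it was 0.84 higher and was called. Ier5 was 0.23 higher and was not called. Bak1 was within a fold change of 1.5. Mdm2, the ubiquitin ligase of p53, was 0.19 from control and within that range too. Among 25 BCL2 family and caspase genes tested, 2 rose and 2 fell, where 20.2% of all genes were called, and 14 were within a fold change of 1.5, where 44.2% of all genes were. Cycs, for cytochrome c, rose by 1.01, while the pro-apoptotic BH3 genes Bik and Bmf fell by 0.82 and 0.80. The anti-apoptotic Bcl2l1 differed by -0.14, and Bcl2 did not pass the filter.

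The β cell transcription factors were lowered as a group. Of 20 genes, 12 fell, 1 rose and 2 were within a fold change of 1.5, where 8.35% of all genes fell; the median was -0.81 and in the 4 preparations lay between -0.95 and -0.66. Mafa, a transactivator of insulin in mature β cells, was at 510, 443, 308 and 277 scaled RPKM in the controls and at 177, 147, 42.1 and 93.2 with Ad-Cre and inhibitor. All 4 lay below every control, with a difference of -1.88 ± 0.23 (SE, n = 4 pairs, adjusted p = 0.00127). Neurod1, Nkx2-2, Nkx6-1 and Pdx1, which maintain β cell identity, fell by 1.18, 1.17, 1.02 and 0.92. Hnf4a differed by -0.23 and was within a fold change of 1.5. The nuclear receptor gene Nr4a1 was the exception that rose, by 0.70.

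Glucose sensing genes followed. Of 21 genes for glucose sensing, channels and receptors, 10 fell, where 8.35% of all genes fell. None of the 21 rose, and the median was -0.59. G6pc2, the islet glucose-6-phosphatase, fell by 1.94, from 981, 869, 606 and 613 scaled RPKM to 290, 262, 121 and 157. The groups did not overlap. Slc2a2, which encodes the transporter GLUT2, fell by 1.57 and Slc4a10, a bicarbonate transporter, by 2.36. Kcnj11, for the pore of the KATP channel, fell by 0.59, while Glp1r, which encodes the GLP-1 receptor, differed by -0.42 and was not called. In the SNARE and exocytosis group 3 of 19 fell, Sytl4 by 1.53, Rims2 by 0.95 and Cplx2 by 0.62, and Napa rose by 0.76, where 8.35% of all genes fell. As deposited 6 fell, and after quantile normalization 8 fell and none rose.

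Hormone and granule genes went in both directions. Of 18 genes 3 rose, 3 fell and 6 were within a fold change of 1.5. Over all genes 11.8% rose, 8.35% fell and 44.2% were within that range. Ins2 was 0.02 from control, with an interval from -0.29 to 0.33. Ins1 fell by 0.71 (adjusted p = 0.0101), from 27033 ± 7395 to 16833 ± 5500 scaled RPKM, with overlap between groups. The coding sequences of both insulin genes are closely alike, so their reads can be shared and single values are uncertain. Ucn3, a marker of mature β cells, fell by 1.76, and the zinc transporter gene Slc30a8 by 0.67. Vgf, a granule peptide precursor, rose by 2.50, from 59.0, 38.0, 32.1 and 22.1 to 379, 190, 123 and 203. Scg2 rose by 0.67 and Ptprn by 0.69. Pcsk1, Pcsk2, Scg5, Pam and Ptprn2 had intervals within a fold change of 1.5. The median of this group, 0.07, was -0.10 as deposited and -0.50 after quantile normalization. As deposited 1 of the 18 rose and 3 fell, and after quantile normalization 1 rose and 5 fell. Of 14 genes tested among those that β cells normally keep silent, 2 rose, Oat by 1.04 and Cat, which encodes catalase, where 11.8% of all genes rose.

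Beyond the ER and β cell groups, genes of protein synthesis were higher. Over all genes 11.8% rose, 8.35% fell and 44.2% were within a fold change of 1.5. Of 75 cytosolic ribosomal protein genes tested, 71 rose and none fell, with a median of 1.08 that ranged from 0.93 to 1.21 across preparations; many of these genes have pseudogenes that can share their reads, so single values are uncertain. As deposited 65 of them rose, and 48 after quantile normalization. Rpl35 rose by 1.53 and Rps20 by 1.51. Among MYC and ribosome biogenesis genes 8 of 22 rose, with Odc1, the first enzyme of polyamine synthesis, at 1.48 and Nop56 at 1.33. Of 36 proteasome subunits tested 13 rose (8 as deposited, 5 after quantile normalization) and 14 were within a fold change of 1.5. Of 83 subunits of oxidative phosphorylation 34 rose and 1 fell, with a median of 0.50, but the number that rose was 15 as deposited and 7 after quantile normalization. The one that fell was Cox6a2, by 2.08.

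The counts for metabolic and stress groups stand beside the 11.8% of all genes that rose and the 8.35% that fell. Of 24 sterol synthesis genes 10 rose and 1 fell, and Mvd, which encodes mevalonate diphosphate decarboxylase, rose by 2.18. Of 17 NRF2 targets and metallothioneins 7 rose (5 as deposited, 4 after quantile normalization) and 1 fell. Hmox1, for heme oxygenase 1, rose by 2.31 and the ferritin gene Ftl1 by 1.82, while Nqo1, a textbook NRF2 target, fell by 1.55. Of 16 glycolytic enzymes 6 rose and none fell, Pgam1 by 1.14 and Pgk1 by 1.04. As deposited 6 of them rose and 2 fell, and after quantile normalization 5 rose and 2 fell. In the glucose response group 3 of 11 rose and 3 fell, with Fasn, for fatty acid synthase, at 0.89 and the thioredoxin inhibitor gene Txnip at -0.72. As deposited 1 of the 11 rose and 3 fell, and after quantile normalization 2 rose and 3 fell. Of 20 replication and mitosis genes tested 8 rose, Ccne1, for cyclin E1, by 1.89 and Pcna by 1.11. Of 13 cytosolic heat shock genes 6 rose (5 as deposited, 3 after quantile normalization), including Bag3 at 1.12. Interferon genes had 4 of 15 higher, Bst2 at 1.12 and H2-K1 at 1.05, with a median of -0.02 that was 0.06 after quantile normalization. Of 10 NF-kB targets and chemokines tested, Ccl7 and Ccl2 rose, by 1.79 and 1.39.

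**Figure D3:**
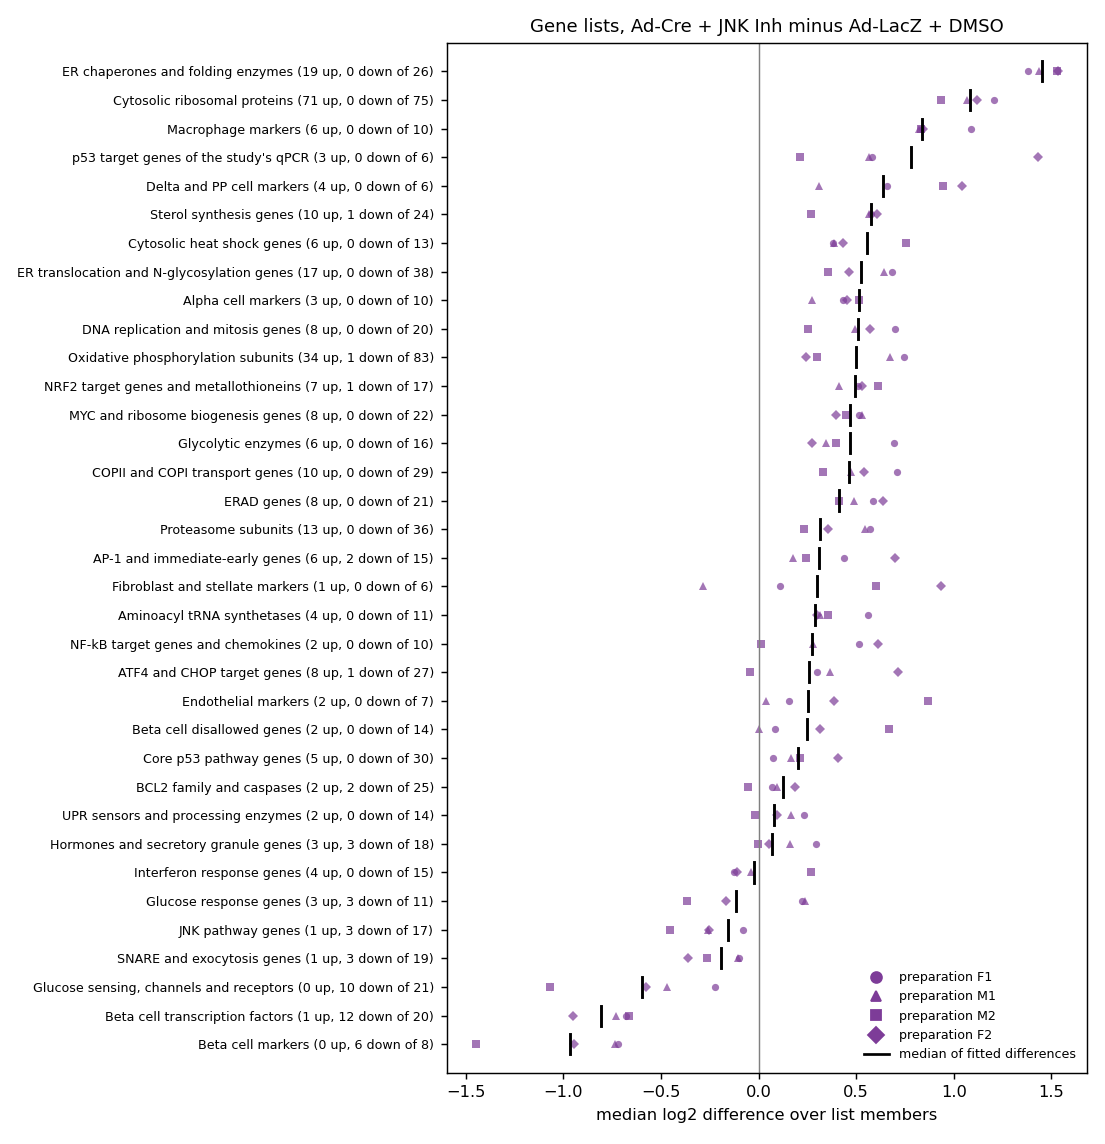
Median log2 difference between Ad-Cre + JNK Inh and Ad-LacZ + DMSO (horizontal axis) for each gene list with at least 6 genes tested. Vertical bars are the median of the fitted differences and symbols the median in each preparation; row names give how many members rose and fell. ER chaperones are farthest to the right at 1.45, and β cell transcription factors and markers are farthest to the left at -0.81 and -0.97.

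Markers of other cells moved in the same comparison, in which 11.8% of all genes rose and 8.35% fell. Of 10 α cell markers tested 3 rose, Ttr by 1.34, Slc38a5 by 0.74 and Irx1 by 0.68, and the list summed to between 11587 and 19570 scaled RPKM in the controls and between 14975 and 29284 with Ad-Cre and inhibitor. Gcg, which encodes glucagon, was 0.57 higher and was not called. Of 6 δ and PP cell markers 4 rose (2 as deposited and 2 after quantile normalization), and their sum went from between 3525 and 7217 to between 7417 and 12886. Of 10 macrophage markers tested out of 13 listed 6 rose, and their sum was 84.3 to 104.8 in the controls, 196 to 342 in Ad-LacZ + JNK Inh, 106 to 247 in Ad-Cre + DMSO and 236 to 382 with Ad-Cre and inhibitor. The markers Adgre1, Ptprc and Mrc1 did not pass the filter. Lyz2, for lysozyme, rose by 2.36, with 25.2, 30.5, 23.5 and 34.9 in the controls and 116, 100.2, 240.5 and 175 with Ad-Cre and inhibitor. Of the β cell markers 6 of 8 fell, and their sum was 45754 to 83992 in the controls and 35415 to 73444 with both agents, so the ranges overlapped. Endothelial, fibroblast and duct markers had 2 of 7, 1 of 6 and 1 of 3 higher, and no list had a marker called lower except that of β cells. This depended on the scaling. As deposited 1 duct marker was called lower and none higher, and after quantile normalization 1 fibroblast marker was called lower. The sums of the fibroblast list overlapped between the groups. The part of a changed cell mixture in the results above was not tested.

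To describe what was altered with the inhibitor too, the genes that Ad-Cre changed without it were followed. Ad-Cre + DMSO against the same 4 control libraries called 1247 of 11590 genes (10.8%), 655 higher and 592 lower. Both comparisons share these control libraries, so the counts below describe the classes that the rule sets. With the inhibitor 1033 of the 1247 (82.8%) were still called in the same direction, 531 of those that were higher and 502 of those that were lower. Of the 1033, 894 were farther from control than in Ad-Cre + DMSO by the fitted difference. Being called with both agents was a condition for the 1033, so a larger difference there is partly built in. Tested directly against Ad-Cre + DMSO, 59 of the 1033 were called, where 250 of 11503 genes (2.17%) were. The share still called was 64.3% without preparation F1, 68% without M1, 93% without M2 and 84.4% without F2. By limma none of the 1247 was called in the other direction. For 187 (15.0%) the data did not decide, since they were neither called nor within a fold change of 1.5, and 6 were not tested. Phlda3, Atf4 and Ero1lb were among the undecided. The remaining 21 (1.68%), 14 that Ad-Cre had raised and 7 that it had lowered, had intervals within a fold change of 1.5 of control and are called back at control level. All 18 ER chaperones that Ad-Cre raised still stood above control, as did its 6 ERAD genes, and 12 of the 14 β cell transcription factors that it lowered still stood below.

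Few of the returning genes were also called in the direct comparison with Ad-Cre + DMSO. The same libraries chose these genes, for differing from control with Ad-Cre alone and not with the inhibitor. A direct difference is therefore partly built in and is no independent support. The direct comparison of Ad-Cre + JNK Inh with Ad-Cre + DMSO called 250 of 11503 genes (2.17%), and 3 of the 21 returning genes were among them, Pcsk1, Ifit3 and Ndc1. Pcsk1, which encodes the prohormone convertase that starts proinsulin processing, was at 187, 186, 121 and 133 scaled RPKM in the controls. It was at 123, 110.02, 50.03 and 62.7 in Ad-Cre + DMSO and at 217, 220, 95.7 and 117 with the inhibitor. Each preparation was lowest with Ad-Cre alone. The difference from control was -0.92 without and -0.02 with the inhibitor (interval from -0.36 to 0.33), and the direct difference was 0.91 ± 0.07 (SE, n = 4 pairs, adjusted p = 0.0106). The inhibitor also raised Pcsk1 in cells without Cre, by 0.84 to 283 ± 70.4 scaled RPKM (adjusted p = 0.0339), while with both agents it was at 162 ± 65.3. After quantile normalization Pcsk1 was -0.58 from control with both agents (adjusted p = 0.0118) and was not back at control level. Ifit3, an interferon-induced gene, was at 1.25 ± 0.357, 2.63 ± 0.759 and 1.22 ± 0.728 scaled RPKM in control, Ad-Cre and Ad-Cre with inhibitor. Its direct difference was -0.74 (adjusted p = 0.0374), and all these levels are near the filter of 1 RPKM. Ndc1, which encodes a nuclear pore protein, was 0.59 higher with Ad-Cre and 0.16 lower with both agents, with a direct difference of -0.75 (adjusted p = 0.0258). The Ndc1 mean with both agents joins opposite signs, at 0.17, 0.26, -0.52 and -0.53 in F1, M1, M2 and F2.

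The other genes back at control level were not called in the direct comparison. Acp5, Cd74 and Csf1r are expressed by macrophages and osteoclasts or antigen-presenting cells, and in Ad-Cre + DMSO they were high mainly in preparations M2 and F2. Acp5 was at 1.82, 1.53, 15.9 and 26.5 scaled RPKM there, against 1.13 to 1.84 in the controls and 1.39 to 2.57 with the inhibitor. It was also high, at 15.9 and 18.5, in the M2 and F2 libraries of Ad-LacZ + JNK Inh. Flna, which encodes an actin crosslinker, was at 44.6, 50.5, 177 and 85.6 in Ad-Cre + DMSO and between 36.5 and 89.1 with the inhibitor, again with the highest value in M2. Fads3, a fatty acid desaturase gene, was 0.70 higher with Ad-Cre and 0.07 higher with both agents. Gpr119, a lipid receptor of islet cells, was 0.72 lower in Ad-Cre + DMSO and 0.19 lower with the inhibitor. Sfxn2, Ubr4 and Gucy2c were 0.65, 0.60 and 0.60 lower with Ad-Cre and 0.21, 0.23 and 0.04 lower with both agents. For Gucy2c the small mean joins opposite shifts. Its differences with both agents were 0.32, 0.40, -0.55 and -0.32 in F1, M1, M2 and F2. Membership changed with the processing. Over 12 alternative settings Ifit3 stayed in the class in 11, Apoa5 and Pcsk1 in 10 and 1700110K17Rik in 9. Ndc1 stayed in 6, and Csf1r and Foxs1 in 1. Without the preparation block 3 genes were in the class.

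**Figure D4:**
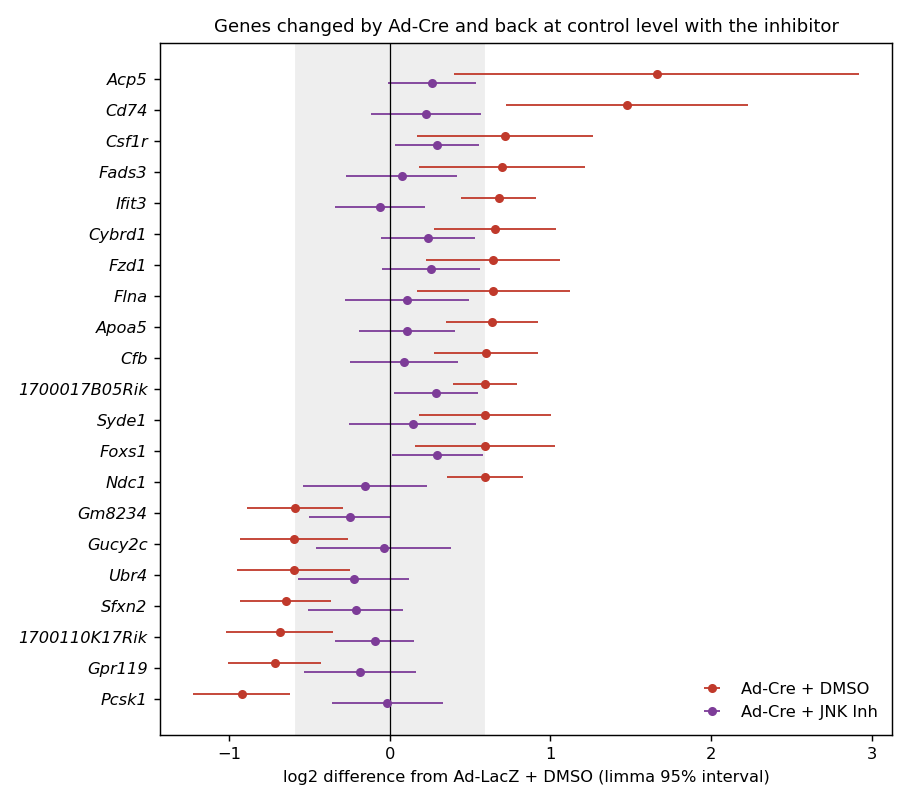
Log2 difference from Ad-LacZ + DMSO with limma's 95% interval (horizontal axis) for the 21 genes that Ad-Cre changed and that were back at control level with the inhibitor. Red points are Ad-Cre + DMSO, purple points Ad-Cre + JNK Inh, and the grey band spans a fold change of 1.5 either way. All purple intervals lie inside the band, which is how the genes were chosen, and the red intervals of Acp5 and Cd74 are the widest.

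Other genes were called with both agents although Ad-Cre + DMSO was within a fold change of 1.5 of control by its interval. There were 238 such genes that were higher and 100 that were lower with both agents. In the direct comparison with Ad-Cre + DMSO, 40 of the 238 and 23 of the 100 were called, where 2.17% of all genes were. The same libraries chose these genes, so a difference from Ad-Cre + DMSO is partly built in. Such counts and direct differences are no independent support. The largest rises among the 238 were Rpp25, Cck, Oxtr, Peg10, Rbp4 and Sst. Sst, which encodes somatostatin, was at 2204, 2064, 2244 and 1202 scaled RPKM in the controls and at 4274, 3033, 7117 and 2450 with both agents. The difference was 1.05 ± 0.19 (SE, n = 4 pairs, adjusted p = 0.00549), and against Ad-Cre + DMSO it was 1.08 (adjusted p = 0.0361). After quantile normalization Sst was 0.06 from control (adjusted p = 0.811) and was not called. Oxtr, the oxytocin receptor gene, rose by 1.19 and the satiety hormone gene Cck by 1.22, the latter not called without the preparation block (adjusted p = 0.129). Rbp4, another δ cell gene, rose by 1.05, and by 0.68 after quantile normalization. The largest falls among the 100 were Dusp16, Zfp189, Meox1, Dusp8, Klf11 and Bmpr1b, between -1.11 and -0.88. For Dusp16, Dusp8 and Klf11 the inhibitor alone also lowered the level, by 0.94, 1.38 and 0.71 (adjusted p = 0.0362, 0.0411 and 0.0428). Ad-LacZ + JNK Inh against control called 44 of 11657 genes in all (0.377%).

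Among all genes called, the largest rises included genes outside the ER groups. After Derl3, Creld2 and Pdia4 came the small nucleolar RNA gene Rnu3b4 at 3.45, which has several near-identical copies and is uncertain. Nptx2, a secreted pentraxin gene, rose by 3.32, from 9.77, 3.03, 8.64 and 6.91 scaled RPKM to 144, 33.4, 69.4 and 93.9. It was 0.83 higher in Ad-Cre + DMSO and 1.72 higher in Ad-LacZ + JNK Inh, each called, and its direct difference from Ad-Cre + DMSO was 2.49 (adjusted p = 0.0104). C1qtnf1 rose by 3.26 and Cgref1 by 3.22. The largest falls were Akr1c14 at -2.44, an aldo-keto reductase gene, Slc4a10 at -2.36 and Endou at -2.26. Endou was at 1.47 and 1.94 in control preparations F1 and M1 and at 21.7 and 22.1 in M2 and F2, and with both agents it was at 0.288, 0.177, 0.833 and 1.62. Hepacam2, Tmem71, Cox6a2, Fmo1 and Adh1 fell by 2.18, 2.10, 2.08, 2.07 and 2.05. For all 8 falls except Endou, the libraries with both agents lay below every control.

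The direct comparison was the least stable result. The 250 genes it called were 173 higher and 77 lower, and none remained when preparation F1, M1 or F2 was left out or when the preparation block was omitted (limma, with 2046, 1788, 2028 and 1055 genes at an unadjusted p under 0.05). Without preparation M2 it called 412. For Ad-Cre + JNK Inh against control, leaving out any 1 preparation gave between 1689 and 2954 called genes.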

How the data were processed

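Poly(A) RNA of 16 cultures was sequenced in paired ends, and 8 libraries were compared here. The authors deposited RPKM per gene (reads scaled by gene length and mapped reads) for GRCm38. Per the study's methods, reads were aligned with STAR, and the counter is not given in the sources used here. RPKM are not counts, so no count model was used. RPKM favours neither long genes nor deep libraries, but a few abundant transcripts shift all others. Therefore each library was divided by a TMM factor computed here on the RPKM (trims of 30% of ratios and 5% of levels). Genes above 1 RPKM in at least 4 of 8 libraries were tested on log2(value + 1) by limma 3.58.1 in R 4.3.3 with preparation as a block. Adding the pseudocount of 1 understates changes of low genes. Calls required a Benjamini-Hochberg adjusted p under 0.05 and a fold change above 1.5. A gene was back at control level when its 95% interval lay within 1.5-fold.

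The preparation code paired cultures of the same mice. Residuals of paired libraries correlated at 0.634, 0.486, 0.346 and 0.0932 (F1, M1, M2 and F2), against a mean of -0.125 for other pairs. The residuals were taken from means of 4 libraries. This pulls the mean of other pairs below 0 when paired libraries correlate, so it is no independent baseline. No 2 libraries were identical. Preparations are the replicates, and p-values measure the spread between 4 of them. The named genes were Hspa5, Jun and the qPCR genes of the study, the 8 largest rises and falls, up to 6 each way among returning genes and among genes called with both agents only, and list members with the largest changes or at control level. Some uncalled list members and returning genes outside this rule were chosen with their values in view. The members and lists were chosen with earlier results of these data known. The table holds 3 columns of no sample, which were not used. Scripts were tested on simulated data. Alternatives varied scaling, filter, pseudocount, block, variance trend, the libraries fitted and each preparation. Some members of the lists are counted but not reported by name here.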

Additional observations from a re-analysis of the deposited data

Results flagged for a closer look

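In 116 groups of 4 libraries over 58 named genes, 4 had 1 library apart from the other 3 by Dixon's criterion, which chance gives in about 1 of 20 groups. In the control library of preparation M2, Hsp90b1 was lowest at 397 scaled RPKM, Phlda3 highest at 25.1 and Klf11 highest at 8.37. In the library labelled Ad-Cre + JNK Inh F1, Cd74 was highest at 3.50. The difference of the effect between the F and M preparations passed the adjusted threshold for 0 of 11514 genes (limma), with 453 at an unadjusted p under 0.05 (3.93%).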

How the results depend on the processing

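With 4 pairs, small differences were not detectable, and the shallowest library (7620000 reads) limits low genes. No called named gene changed sign in Ad-Cre + JNK Inh against control, while 4 that were not called did (Fads3, Ifit3, Pcsk1 and Gucy2c). As deposited, 897 genes were higher and 1664 lower. Without the preparation block 2111 genes were called, and of 56 named genes 14 lost their class. Leaving out 1 preparation gave 1689 to 2954 calls. The alternatives for the other comparisons were chosen after seeing the data. Ad-Cre + JNK Inh against Ad-Cre + DMSO called 127 genes after quantile normalization, 63 with no filter, 0 without the block (limma, 1055 at an unadjusted p under 0.05) and 0 to 412 with 1 preparation left out. Ad-LacZ + JNK Inh against control called 19 as deposited, 0 with no filter (limma, 2237 unadjusted), 17 with a filter of 0.1 RPKM, 25 without the block, 90 with all 16 libraries in 1 fit and 0 to 176 with 1 preparation left out (0 without M1 or M2, with 746 and 699 unadjusted). Genes that stayed altered numbered 783 to 1466, and their share of those that Ad-Cre changed was 64.3% to 93%. Genes back at control level numbered 10 with no filter, 3 without the block and 10 to 26 with 1 preparation left out. The median changed sign for 2 of 38 gene lists as deposited and 4 after quantile normalization. The causes were not tested.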
